A study of Mus musculus with 4 samples.

Results

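The regions described here are stretches of chromatin that were open in every library of the study and ranked lower in strength in both Hoxa5-deficient libraries than in both controls. Merging overlapping peak intervals of the 4 deposited lists gave 199576 regions. Every library had a peak in 65789 of them, called shared regions below. Within each library the −log10 p of a region's best peak was turned into a percentile, from 0 for the weakest to 100 for the strongest interval of that list. A shared region was taken when its lower control percentile exceeded its higher Hoxa5-deficient percentile by 10 or more, a difference called the gap below. This held for 4786 shared regions (7.27%), which are called the weaker regions. The same criterion in the opposite direction took 9449 regions (14.4%). Mixed pairs, each of 1 control with 1 Hoxa5-deficient library against the other pair, gave 562, 780, 1026 and 461 regions. These regions were chosen by the percentiles, so their percentiles and tag counts are a description of 4 libraries, given with no test. Control counts above mutant counts at a named weaker region largely follow from that choice and add no support.

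The assay was ATAC-seq, in which the transposase Tn5 inserts sequencing adapters where DNA is not covered by nucleosomes. The cells came from the cervical spinal level of mouse embryos, at embryonic day 12.5, and were sorted as motor neurons by the green fluorescence of the ChAT::GFP transgenic reporter, which all 4 libraries carried. The groups were 2 libraries labelled control and 2 labelled Hoxa5-deficient, from littermates. The labels do not state which Hoxa5 allele was used, whether it was removed in all cells, the exact genotype of the controls or how many embryos went into a library. The series is titled as a study of Hox5 activity in motor neuron diversity, and the comparison asks where accessibility differs without Hoxa5.

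Hox proteins are homeodomain transcription factors that bind DNA together with cofactors of the Pbx and Meis families and set the identity of neurons along the body axis. Hox5 proteins act in the cervical spinal cord, where they are known for their part in making the phrenic motor neurons that drive the diaphragm. Motor neurons arise from Olig2-expressing progenitors of the ventral spinal cord, and interneurons from other progenitors along its dorsoventral axis. Pax2 acts in inhibitory interneurons, and Lbx1 and Tlx3 in dorsal ones. Regulatory regions away from promoters, among them enhancers, usually differ more between cell types than promoters do.

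The promoters that 7 weaker regions overlap are shown by their sequence, from 250 bases before to 50 after a transcription start, 5′ to 3′ on the strand of the gene, from RefSeq (GRCm38.p6, the assembly of build mm10). They were picked to cover the classes of genes described below: progenitor factors (Sox1, Sox2), interneuron genes (Pax2, Tlx3, Slc32a1), a motor neuron column factor (Foxp1) and the Smad6 promoter, which had one of the largest gaps at a gene end. Capitals mark matches on either strand to 4 motifs: a Hox-Pbx site (TGATNNAT), a Sox site (ACAAAG), a nuclear factor I half-site (TTGGCA) and a neurogenin-type E-box (CAGATG). Sox1 lies at chr8:12395269-12395568 (plus strand), Sox2 at chr3:34649745-34650044 (plus), Pax2 at chr19:44746351-44746650 (plus), Tlx3 at chr11:33203539-33203838 (minus), Slc32a1 at chr2:158610508-158610807 (plus), Foxp1 at chr6:99520944-99521243 (minus) and Smad6 at chr9:64022010-64022309 (minus).
Sox1: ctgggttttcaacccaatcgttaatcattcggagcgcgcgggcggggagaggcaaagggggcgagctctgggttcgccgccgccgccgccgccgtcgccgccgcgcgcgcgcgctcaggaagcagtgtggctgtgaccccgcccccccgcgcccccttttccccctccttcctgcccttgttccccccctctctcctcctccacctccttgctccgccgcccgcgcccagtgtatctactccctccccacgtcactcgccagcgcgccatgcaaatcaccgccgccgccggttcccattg
Sox2: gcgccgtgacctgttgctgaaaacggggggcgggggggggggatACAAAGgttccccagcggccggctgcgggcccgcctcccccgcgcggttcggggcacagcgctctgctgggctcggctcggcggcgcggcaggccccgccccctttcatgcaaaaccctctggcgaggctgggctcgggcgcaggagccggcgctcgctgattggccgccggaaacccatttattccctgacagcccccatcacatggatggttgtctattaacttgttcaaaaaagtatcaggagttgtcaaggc
Pax2: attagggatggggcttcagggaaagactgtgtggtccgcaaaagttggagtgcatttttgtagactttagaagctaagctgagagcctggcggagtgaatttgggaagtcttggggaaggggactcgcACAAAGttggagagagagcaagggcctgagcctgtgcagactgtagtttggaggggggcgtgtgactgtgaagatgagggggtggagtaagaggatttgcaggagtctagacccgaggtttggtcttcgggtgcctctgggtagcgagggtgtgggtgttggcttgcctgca
Tlx3: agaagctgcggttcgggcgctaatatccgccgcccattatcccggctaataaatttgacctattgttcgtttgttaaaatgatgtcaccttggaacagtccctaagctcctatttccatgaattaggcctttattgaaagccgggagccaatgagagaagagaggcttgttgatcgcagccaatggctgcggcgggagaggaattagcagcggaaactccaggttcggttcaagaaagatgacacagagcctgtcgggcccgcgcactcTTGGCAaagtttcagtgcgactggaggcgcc
Slc32a1: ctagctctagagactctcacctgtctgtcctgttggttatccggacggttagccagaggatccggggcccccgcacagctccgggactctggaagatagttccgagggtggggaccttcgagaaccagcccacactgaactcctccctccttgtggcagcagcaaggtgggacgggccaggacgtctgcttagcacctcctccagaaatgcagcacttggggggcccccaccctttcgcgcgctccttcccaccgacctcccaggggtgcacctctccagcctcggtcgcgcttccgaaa
Foxp1: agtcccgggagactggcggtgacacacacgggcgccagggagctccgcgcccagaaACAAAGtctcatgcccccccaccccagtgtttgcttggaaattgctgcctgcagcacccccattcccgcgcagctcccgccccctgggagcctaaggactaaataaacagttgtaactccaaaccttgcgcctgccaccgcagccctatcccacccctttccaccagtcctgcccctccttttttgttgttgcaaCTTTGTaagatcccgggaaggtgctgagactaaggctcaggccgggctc
Smad6: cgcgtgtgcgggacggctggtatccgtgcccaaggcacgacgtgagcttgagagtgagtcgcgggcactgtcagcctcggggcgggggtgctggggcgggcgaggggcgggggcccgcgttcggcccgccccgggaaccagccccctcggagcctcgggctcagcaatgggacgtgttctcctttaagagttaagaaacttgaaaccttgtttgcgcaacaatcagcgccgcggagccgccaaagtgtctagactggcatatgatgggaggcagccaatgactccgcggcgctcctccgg
The Sox site was found in Sox2, Pax2 and Foxp1, with 2 matches in Foxp1, and the nuclear factor I half-site in Tlx3. The promoters of Sox1, Slc32a1 and Smad6 held none of the 4 motifs in these windows. A match is a run of letters and not a bound site.

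The 7 regions over these promoters were lower in both mutants than in both controls once tags were scaled for depth. A tag is a mapped read as counted by the peak caller, and tags at a peak's summit were recovered as whole numbers from the deposited values. At the Sox1 promoter the controls had 181 and 128 tags and the mutants 39 and 88. At Sox2 the counts were 176 and 127 against 74 and 82. Sox1 and Sox2 mark dividing neural progenitors, and at both the lowest control lay above the highest mutant. The Pax2 promoter region had 66 and 44 tags in controls against 19 and 27 in mutants. At Tlx3, which marks excitatory dorsal interneurons, the counts were 188 and 133 against 74 and 88. At Slc32a1, the vesicular transporter of inhibitory neurons, they were 76 and 77 against 30 and 35. Foxp1, a factor of limb-innervating motor columns, had 74 and 51 tags in controls against 37 and 53 in mutants, and here control 2 lay below Hoxa5-deficient 2 before depth was taken into account. Smad6, an inhibitor of BMP signalling, had 174 and 109 tags against 39 and 53.

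The libraries differed in yield and depth. The control lists held 115089 and 113505 intervals, the mutant lists 127458 and 138248, and the lowest background at a summit, a measure of depth, was 5.43 and 4.39 tags per control library and 5.14 and 6.06 tags per mutant library. Percentiles from lists of different length show no change by themselves, since weak peaks added to a longer list push up the rank of every stronger one. Summit tags divided by the library's lowest background (depth-scaled tags) do not depend on list length. Of all shared regions, 33.6% of those past the criterion in either direction were weaker without Hoxa5; the share was 48.5% when libraries were ranked only among shared regions and 50.8% with equal numbers of intervals. The relative number of weaker and stronger regions therefore follows the ranking chosen and is not read as a result.

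On the depth-scaled scale 4742 of the 4786 weaker regions (99.1%) were lower in both mutants than in both controls. Over all shared regions this held for 20.1%, and since these are the libraries that chose the regions, nothing is read from the difference. The weaker regions had median depth-scaled tags of 8.65 and 8.66 in controls against 4.09 and 3.96 in mutants. Their control levels were thus those of an ordinary shared region, for which the medians were 8.65 and 8.89, while in mutants ordinary shared regions had 9.34 and 10.9. Expressed as the ratio of the control mean to the mutant mean, the weaker regions had a median of 1.95 (quartiles 1.65 and 2.45, range 0.926 to 5.98). The median ratio of all shared regions was 0.881, so a ratio of 1 is not the centre of this scale. The ratio was 2 or more in 2234 weaker regions and 3 or more in 540. A peak was still called in every mutant library by construction, but 8.61% and 6.60% of the weaker regions had a q-value over 0.05 in mutants 1 and 2, and none did in controls. Over all shared regions the shares were 1.49% and 1.59% in controls and 1.71% and 1.02% in mutants. The q-value follows the p that the rule ranked, so nothing is read from this. In sorted cell populations, fewer cells with the region open and less open chromatin in each cell cannot be told apart.

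**Figure D1:**
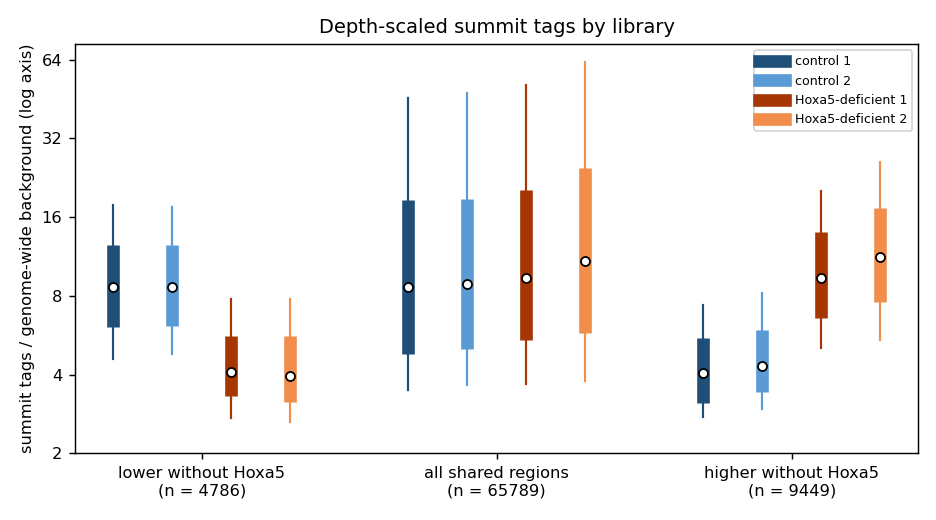
Depth-scaled summit tags (summit tags over the library's lowest background, log axis) in each of the 4 libraries for the regions weaker without Hoxa5, for all shared regions and for the regions stronger without Hoxa5. White points are medians, thick bars quartiles and thin lines the 10th to 90th percentile over regions; the weaker regions have medians near 8.65 in controls and near 4 in mutants.

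Most gaps were modest. The median gap was 17.4 percentile points, 2863 regions (59.8%) had gaps of 10 to 20, and 79 had 50 or more. The median difference between the 2 controls at these regions was 3.95 points and that between the 2 mutants 8.83 points. The regions just inside the criterion were those at Prag1, Ddx6 and Myo18a. At Myo18a the tags were 29 and 30 in controls against 17 and 25 in mutants. Those just outside were at Gpc3, Pip5k1b and Tmprss7. At Pip5k1b the counts were 70 and 38 in controls against 28 and 20 in mutants, and its ratio of control to mutant depth-scaled tags, 2.46, was above the 1.64 of Myo18a.

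The 12 regions with the largest gaps had gaps from 60.03 to 69.8. The top one lay in the body of Pde3a, a phosphodiesterase that breaks down cyclic nucleotides, at chr6:141485249-141485930. It had 54 and 41 tags in controls against 11 and 13 in mutants, which put it at percentiles 76.4 and 73.4 in controls against 1.49 and 3.55 in mutants. It ranked well above the middle of both control lists and among the weakest peaks of both mutant lists. The next lay in the body of Ptn, which encodes pleiotrophin, a secreted growth factor, at chr6:36755152-36755756, with 54 and 40 tags against 11 and 14. The third, at chr19:36910482-36911091 and 6.70 kb outside the body of Fgfbp3, a fibroblast growth factor binding protein, had 71 and 68 tags against 11 and 16, and its ratio of 5.98 was the highest of all weaker regions.

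The genes assigned to 3 others of the 12 were Prdm12, Pax8 and Wnt7a. A region in the body of Prdm12, a zinc finger factor of V1 interneuron progenitors and of pain-sensing neurons, had 83 and 67 tags in controls against 18 and 19 in mutants (chr2:31640837-31641510). Near Pax8, a partner of Pax2 in inhibitory interneurons, a region 27.7 kb outside the gene had 73 and 54 tags against 14 and 17 (chr2:24502904-24503706). A region 17.8 kb outside Wnt7a, a secreted Wnt ligand, had 93 and 65 tags against 17 and 18 (chr6:91345836-91346787). Control and mutant tags did not overlap at any of these 3. At Sp8, a zinc finger factor, the region lay 195 kb outside the body and is assigned to it only as the nearest gene, with 49 tags in each control against 12 and 15. The other 5 were near or in Gm12695, Mkrn1, a ubiquitin ligase, Tox2, an HMG-box factor, Glis3, a zinc finger factor, and Arhgap15, a regulator of Rac GTPases, where the lowest control count was 33 and the highest mutant count 15. Local background sat at the lowest level of the library in both mutants at 10 of the 12; at Prdm12 it was 18.4 and 13.5 tags in controls against 7.65 and 9.99 in mutants.

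**Figure D2:**
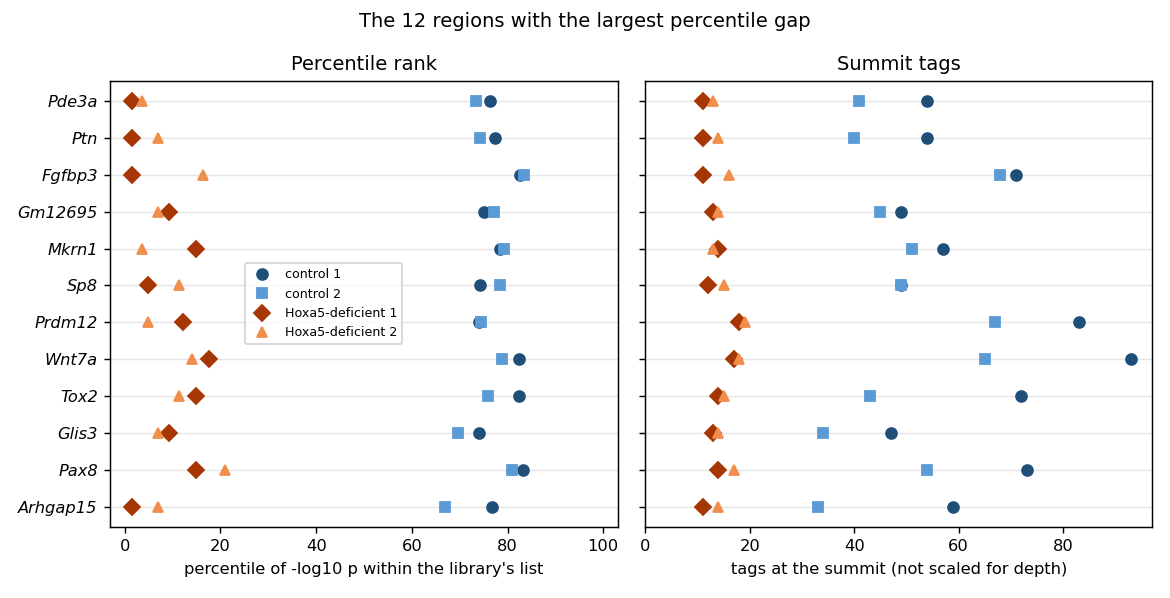
Percentile of −log10 p within the library's list (left) and summit tags not scaled for depth (right) at the 12 regions with the largest gap, named by assigned gene, with 1 point per library. In all 12 the points of the 2 controls lie to the right of those of the 2 Hoxa5-deficient libraries on both scales.

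The weaker regions were regions of middle rank. By their lower control percentile, they made up 14.1% of shared regions from 60 to 70 and 13.7% from 70 to 80. Of the 10560 shared regions above 90 in both controls only 34 (0.322%) were weaker regions, in a part of the lists where 10 points span many more tags than lower down. The regions were also narrower than shared regions as a whole, with a median merged width of 621 bp against 765 bp. A single summit in every library was found in 39.3% of them against 28.0%. Neither width nor summit number was compared at equal control percentile, so neither is read as a trait of these regions.

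Few of them lay at gene ends. A summit fell within 1 kb of either end of a protein-coding gene, on either side, in 243 weaker regions (5.08%, Wilson 95% interval 4.49 to 5.74, counting error only). The share was 19.9% among all shared regions and 2.61% among the stronger regions. Because gene ends hold the strongest peaks, the comparison was also made within bands of control percentile. From 60 to 70 the share at gene ends was 5.47% of weaker against 9.09% of other shared regions, and from 80 to 90 it was 5.11% against 24.4%. It was lower in each band from 50 upward. From 30 to 40 it was 5.36% against 4.71%, and from 40 to 50 it was 6.14% against 5.06%, so in these bands the share was not lower. The bands below 30 with any weaker region held 8 and 55 of them, of which 1 and 0 lay at gene ends. More than 1 kb from an end, summits inside gene bodies made up 47.7% of weaker and 41.2% of all shared regions, and those outside but within 100 kb of a body 32.8% and 26.4%. Over 100 kb from any body lay 14.4% of weaker regions and 12.5% of all shared regions. Read by place, weaker regions were 1.86% of shared regions at gene ends, 8.42% of those inside bodies, 9.04% of those outside but within 100 kb and 8.38% of those farther away.

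**Figure D3:**
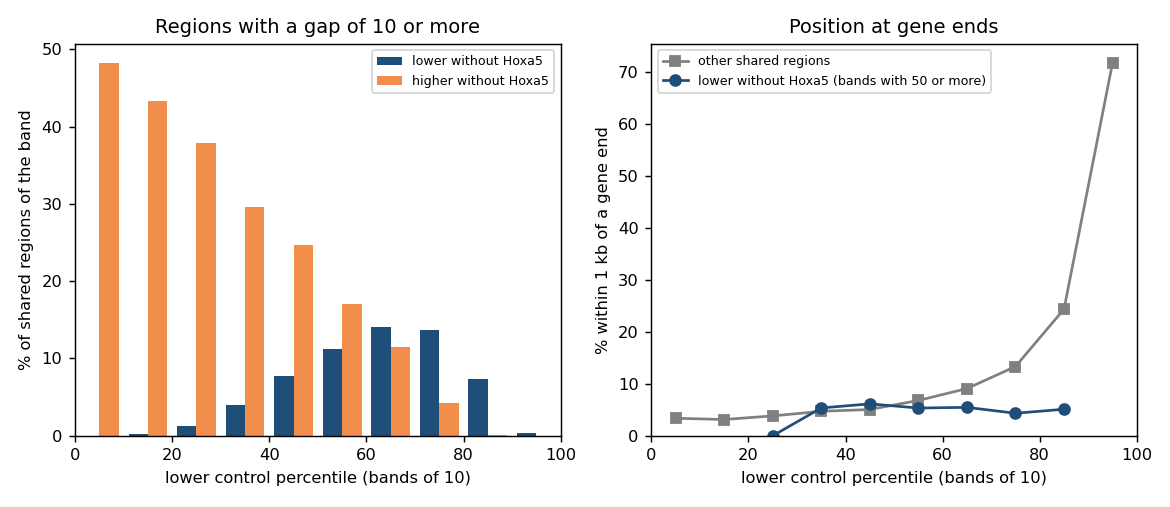
Left, percent of shared regions weaker or stronger without Hoxa5 in bands of 10 of the lower control percentile. Right, percent within 1 kb of a gene end in the same bands, for the weaker regions (bands with at least 50 of them) and for the other shared regions; the others climb to 71.8% in the top band, while the weaker regions stay at 6.14% or below.

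At gene ends the largest gap was at Nwd1, with 66 and 44 tags in controls against 16 in each mutant (chr8:72646372-72647062). Ccnd1, the cyclin D1 gene of the cell cycle, had a region 0.04 kb inside one of its ends with 83 and 67 tags against 35 and 42. Zbtb16, a zinc finger factor of early neural progenitors, had a region inside its body, 0.73 kb from a gene end, with 37 and 34 against 18 and 21. At Smad6, whose promoter is shown above, the gap was 43.0, with percentiles of 88.2 and 83.0 in controls against 39.98 and 39.7 in mutants. Dazap1 and Abhd2 complete the 6 largest at gene ends, with gaps of 49.5 and 37.3. Mutant tags lay below control tags at all 6.

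Weaker regions overlapped 111 annotated promoters of 100 genes, out of 12665 promoters of 10771 genes that any shared region overlapped; the promoter table holds no gene of chromosome 18 and is not complete. Median GC content was 56.3% in these 111 and 62.3% in all overlapped promoters, and the median number of CpG pairs in the 300 bases was 10 against 22. Promoters in shared regions with a lower control percentile under 80 lay between, at 60.3% GC and 14 CpG, and those in stronger regions were at 56.0% and 10. Over all 21263 promoters, overlapped or not, the medians were 56.3% GC and 13 CpG. Of the 111, 28 (25.2%) held the Sox site on either strand, against 12.4% of overlapped promoters, 14.1% of those under percentile 80, 17.9% of those in stronger regions and 16.8% of all 21263 promoters. The Hox-Pbx site was in 7.21% against 3.40%, 5.58%, 8.13% and 7.45%, in the same order. The nuclear factor I half-site was in 18.02% against 10.2%, 12.01%, 14.6% and 13.1%, and the neurogenin-type E-box in 14.4% against 10.5%, 13.2%, 16.3% and 14.6%. The Ets site CCGGAA, common in promoters of housekeeping genes, was in 9.01% against 27.8%, 11.3%, 13.0% and 18.7%. In all, 15 motifs were counted, and those described were picked with every share in view. In the 111 promoters, 4 of the 15 had a share above each of the 4 comparison sets: the Sox site, the nuclear factor I half-site, a second Sox site written ATTGTT (11.7% against 4.96%, 5.48%, 6.50% and 9.05%, in the order used above) and the AP-1 site TGANTCA (7.21% against 3.995%, 6.68%, 5.69% and 6.99%). Below each set were 2, the Ets site and the Onecut site ATCAAT, and the other 9 lay within the range of the sets. No test was made of these shares. Alternative promoters of 1 gene can share bases, so the 111 are not independent sequences.

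The weaker regions were spread over the genome. They made up from 6.25% (chromosome 17) to 8.02% (chromosome 18) of shared regions on the autosomes, 4.24% on X (50 of 1178) and none of 9 on Y. The next shared region along the chromosome was also a weaker region for 473 of them (9.88%), and 899 (18.8%) had another within 20 kb. A region called in both controls and neither mutant lay within 20 kb of 22.1% of weaker regions and of 17.3% of shared regions. For regions called in both mutants and neither control the shares were 34.6% and 30.8%, so for both kinds the share was the higher one at weaker regions. The longest unbroken run held 5 regions on chromosome 13 between 120025547 and 120063957, in and near Gm36079 and Gm21188. These are predicted genes, and whether near-identical copies share reads there was not tested.

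Weaker regions were assigned to 3111 of the 15898 genes that had a shared region, each region going to the shortest protein-coding gene around its summit or else to the nearest one. Most of these genes, 2183, had 1 and 94 had 5 or more. To 1657 of these genes a stronger region was also assigned, at whatever distance from the weaker one. Gse1 had the most, 11 of its 59 shared regions, and all but 1 lay inside its body of 353 kb. Gse1 also had 5 stronger regions. Its highest gap was at chr8:120270438-120270960, with 48 and 57 tags in controls against 17 and 16 in mutants. Prex1, an exchange factor for Rac GTPases, followed with 10 of 25 and 3 stronger ones.

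Sox2, the progenitor factor, had 9 weaker regions among 35 assigned to it, none inside its body of 2.47 kb, and also 8 stronger ones. One overlapped the promoter printed above and the others lay from 7.28 to 436 kb from the gene. The lowest ratio of control to mutant depth-scaled tags among the 9 was 1.66, the median 2.40 and the highest 4.72. The highest was at chr3:34443675-34444618, 206 kb from the gene, where controls had 151 and 128 tags and mutants 34 and 33. Its gap was 25.9, less than the 27.1 of the region 7.28 kb from the gene, where tags were 74 and 47 against 23 and 28, so the order by gap and the order by tags differed. Weaker regions lay mostly on the lower-coordinate side of Sox2 and stronger ones mostly on the other, so the gene's neighbourhood did not move as a whole.

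Pax2, which specifies inhibitory interneurons, had 9 of 25 and 3 stronger ones. All 9 lay between 64.7 kb on one side of the body and 36.4 kb on the other. The region at chr19:44755576-44757230 had 231 and 159 tags in controls against 71 and 69 in mutants, the most tags of the 9. A region inside the body at chr19:44750419-44751057 had 52 and 41 against 18 and 23. Both Pax2 examples show controls above mutants with no overlap. Sox6, a factor of progenitors and some interneurons, had 8 of 33, all in its body, and 7 stronger ones. Rybp, a Polycomb complex subunit, had 8 of 33, none in its body, and 4 stronger ones. The other genes with 8 were Tenm4, a teneurin adhesion protein (8 of 60, with 11 stronger), Tox3, an HMG-box factor (8 of 43, with 9 stronger), and Rbfox1, a neuronal splicing factor (8 of 68, with 17 stronger).

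**Figure D4:**
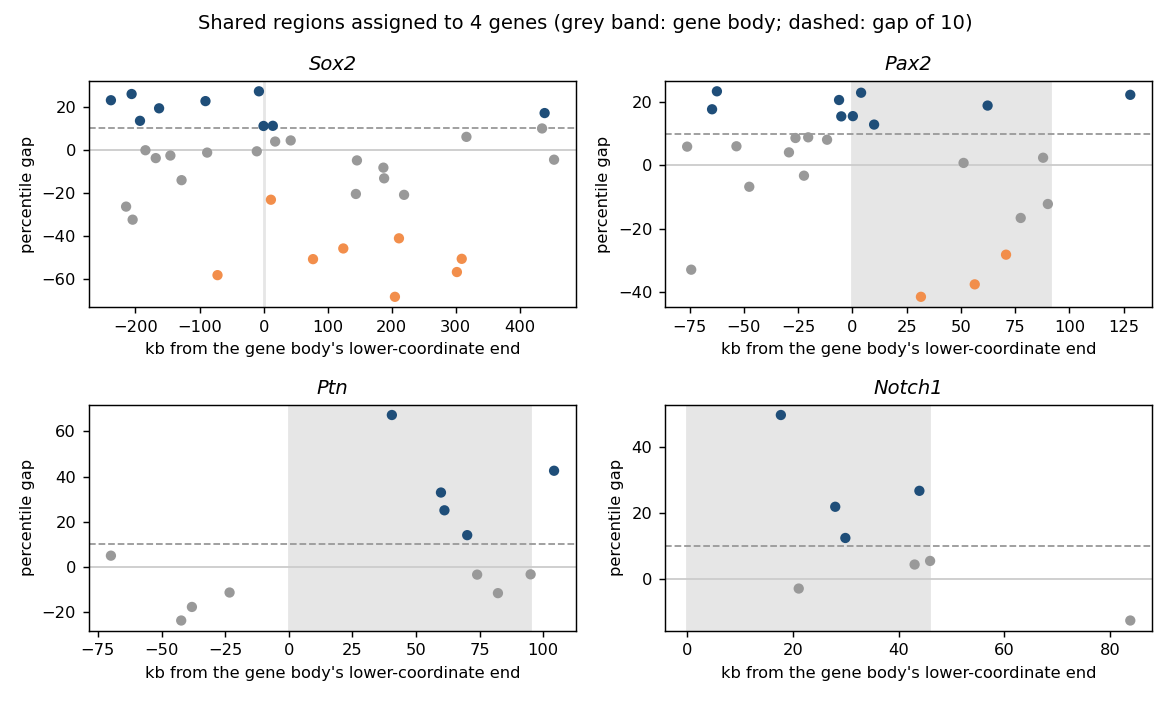
Gap of each shared region assigned to Sox2, Pax2, Ptn and Notch1 against its distance in kb from the lower-coordinate end of the gene body (grey band). Blue points are weaker regions, at or above the dashed line at 10, orange points are regions stronger without Hoxa5 by the same criterion and grey points the rest; Ptn and Notch1 have no orange point.

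For 15 lists of genes, weaker regions were counted against all shared regions assigned to the list. The lists were chosen with earlier results of these data known, so the shares are descriptions, to be read against 7.27% for all shared regions and against the share of stronger regions, 14.4% overall. In 9 of the 15 lists the share of weaker regions was above 7.27%. It was highest for neural progenitor genes, spinal interneuron genes and glial genes, and it was 0 for cholinergic genes. With this ranking, only for the progenitor and interneuron lists and for housekeeping genes was the share of weaker regions above that of stronger ones; for Hox genes the shares were equal.

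**Figure D5:**
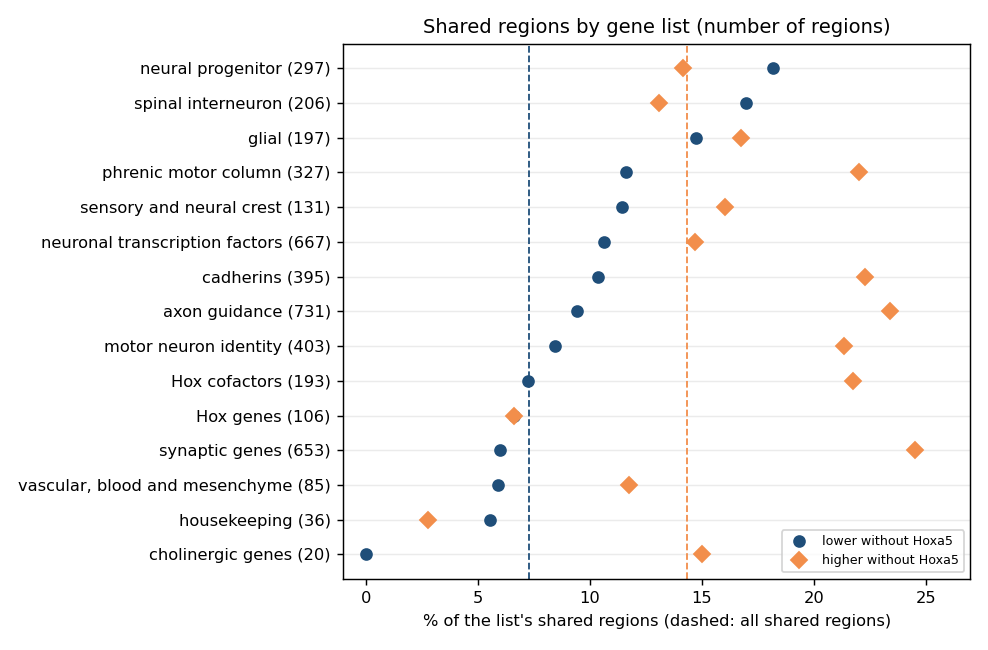
Percent of each list's shared regions that were weaker (blue circles) or stronger (orange diamonds) without Hoxa5, with the number of shared regions in brackets and dashed lines at the shares over all shared regions. Neural progenitor genes are at 18.2% weaker and cholinergic genes at 0.

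Neural progenitor genes held 54 weaker regions among 297 (18.2%), in 18 of 28 genes, against 14.1% stronger. Of the 28 genes, 12 had more weaker than stronger regions and 7 had more stronger than weaker ones. Besides Sox2 the weaker regions were led by Sox1 with 5 of 11. Notch1, the receptor that keeps progenitors undifferentiated, had 4 of 8 and no stronger region. Its strongest gap, 49.8, was inside the body at chr2:26475361-26475992, with 63 and 43 tags in controls against 12 and 20 in mutants. Another inside Notch1, at chr2:26501604-26502010, had 172 and 134 tags against 51 and 47. In Nes, the gene of the progenitor filament nestin, 1 of 2 shared regions was weaker, with 158 and 101 tags against 37 and 50 (chr3:87973974-87974950). Gli2, an effector of Hedgehog signalling, had 4 of 38, the largest with 53 and 64 tags against 19 and 27, and also 7 stronger regions. Control and mutant tags did not overlap at any of the weaker regions named so far in this list. Olig2, which marks the progenitors of motor neurons and later of oligodendrocytes, had 2 of 5. At its nearer one, chr16:91246276-91246745, the counts were 71 and 63 against 31 and 34. Sox1, Notch1, Olig2 and the further Ptn, Lbx1 and Slc32a1 regions described below were picked after their values were seen.

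Spinal interneuron genes held 35 of 206 (17.0%), in 17 of 26 genes, against 13.1% stronger. Pax2 accounted for 9 of the 35, and the top gap, at Pax8, is given above. Lbx1, a determinant of dorsal interneurons, had 3 of 9. One of them, 7.66 kb outside the gene at chr19:45244173-45244647, had a gap of 54.8 and 51 and 39 tags in controls against 14 and 16 in mutants. The one nearest the gene, chr19:45230879-45232028, had 137 and 125 against 49 and 34. In Prdm8, a transcriptional repressor, the counts were 107 and 80 against 37 and 45. Slc32a1 had 3 of 8, with the region 0.75 kb outside the gene at 99 and 101 tags against 26 and 43. The enzymes that make GABA, encoded by Gad1 and Gad2, had 1 of 6 each. Controls were above mutants in all of the regions named here.

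Glial genes held 29 of 197 (14.7%), in 9 of 17 genes, against 16.8% stronger. Nfia, a factor that starts gliogenesis, had 7 of 47 and 11 stronger ones. Its weaker region at chr4:98004113-98004676 had 104 and 85 tags in controls against 23 and 27 in mutants. Sox10, a factor of oligodendrocytes and neural crest, had 3 of 5. Pdgfra, a receptor of oligodendrocyte precursors, had 2 of 10, the larger with 42 and 30 tags against 16 and 15. Among sensory neuron and neural crest genes 15 of 131 (11.5%) were weaker, against 16.03% stronger. Tfap2a, a neural crest factor, gave 5 of these, one with 141 and 147 tags against 33 and 44 (chr13:40730540-40731821). Genes of vessels, blood and mesenchyme had 5 of 85 (5.88%). They included a region near Prrx1, a mesenchyme factor, with 74 and 52 tags against 19 and 20, and one near Myf5, a muscle determination factor, with 23 and 29 against 14 and 16.

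The shares of all depth-scaled tags at shared regions that these marker lists took were lower in both mutants than in both controls. Most of their regions were not lower in both mutants. Nor were the summed tags of any of these lists below both controls in both mutants. For progenitor genes the sums were 3982 and 3894 in controls against 3418 and 4020 in mutants. The sum over all shared regions was higher in both mutants than in both controls. Over all shared regions, 20.1% had depth-scaled tags lower in both mutants, and the median ratio of control to mutant tags was 0.881. Of all depth-scaled tags at shared regions, progenitor genes took 0.347% and 0.323% in controls against 0.263% and 0.260% in mutants, and 125 of their 297 regions (42.1%) were lower in both mutants, with a median ratio of 1.09 over the list. Interneuron genes took 0.235% and 0.232% against 0.194% and 0.197%, with 89 of 206 regions (43.2%) lower and a median ratio of 1.11. Glial genes took 0.184% and 0.170% against 0.142% and 0.136%, with 71 of 197 (36.0%) lower and a median ratio of 1.03. The share of tags was also lower in both mutants for genes of vessels, blood and mesenchyme (0.0690% and 0.0634% against 0.0559% and 0.0533%). The same held for sensory and neural crest genes (0.123% and 0.122% against 0.112% and 0.111%). So it did for other neuronal transcription factors (0.700% and 0.678% against 0.652% and 0.643%), though their summed tags were higher in both mutants. For motor neuron identity genes the shares of the groups overlapped (0.363% and 0.348% against 0.355% and 0.353%), while the summed tags were higher in both mutants. Synaptic, phrenic, cadherin and Hox cofactor genes took higher shares in both mutants. Cholinergic genes took 0.0304% and 0.0302% in controls against 0.0330% and 0.0356% in mutants, with 1 of 20 lower and a median ratio of 0.820. A region in Chat, the gene of the enzyme that makes acetylcholine, had 54 and 61 tags in controls against 204 and 404 in mutants (chr14:32439529-32440389). It does not stand for the list: 2 of the 9 Chat regions and 15% of the cholinergic regions were stronger, against 14.4% of all shared regions. Every progenitor and interneuron gene of the lists had a shared region. A shared region has a peak in all 4 libraries by definition, so no list could be at 0 in either group. The share of other cell types in the sorted cells was not measured, and its part in the weaker regions was not tested.

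Cholinergic and motor neuron genes, which mark the labelled cell type, had shared regions. Such counts do not show a cell type, since Sox2 had 35 and Pax2 25. Chat had 9 shared regions, Slc18a3, the vesicular acetylcholine transporter, 1, Isl1 11, Lhx3 5 and Mnx1 4, the last 3 being homeodomain factors of motor neuron identity. Among all 20 regions of the 4 cholinergic genes none was weaker and 3 were stronger, where 7.27% and 14.4% of all shared regions were, so few would be called in a list of this size. Isl1, Lhx3 and Mnx1 had no weaker region, with 2, 0 and 1 stronger. Other motor neuron genes had some, among them Slit3 with 5 of 53, Ebf1 with 4 of 45 and Lhx4 with 2 of 10. In the same order, 15, 15 and 1 of their regions were stronger. Over all 25 motor neuron identity genes 34 of 403 regions (8.44%) were weaker and 21.3% stronger, and the weaker share was below that of all shared regions, at 0.974 times it, under 1 of 15 other settings. The largest gap was near Pou3f1, a POU factor of phrenic motor neurons, with 54 and 26 tags in controls against 16 and 17 in mutants. The Pou3f1 region lay 297 kb outside the gene. In Foxp1 a region at chr6:99207224-99207702 had 47 and 32 tags against 21 and 26, and in Foxp2, its paralog, one had 31 in each control against 14 and 19. Nkx6-1, a homeodomain factor of ventral progenitors and motor neurons, had 4 of 17 and 1 stronger region.

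Genes known from the phrenic motor column held 38 of 327 (11.6%), in 12 of 16 genes, with 22.02% stronger. Ptn had 5 of 12 and no stronger region. Besides the top one, the region 9.04 kb outside Ptn at chr6:36818620-36820176 had 75 and 55 tags in controls against 19 and 15 in mutants. The 3 others, close together inside the body, had 33 to 50 tags in controls and 18 to 24 in mutants. All 5 Ptn regions thus had control counts above mutant counts, with ratios from 2.02 to 4.28. In Lsamp, an adhesion molecule of the immunoglobulin family, 5 of 49 were weaker and 11 stronger, the largest gap with 29 and 27 tags against 14 and 15. Cdh2, the N-cadherin gene, had 7 of 25 and 5 stronger. The cadherin list shares 8 genes with the phrenic list and held 41 of 395 (10.4%), with 22.3% stronger. Its largest gap was in Cdh18, with 38 and 40 tags against 14 and 15 (chr15:22717414-22717974), followed by Cdh13 with 35 and 26 against 12 and 15 and Cdh4 with 52 and 38 against 20 and 30.

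Axon guidance genes held 69 of 731 (9.44%), in 28 of 40 genes, with 23.4% stronger. Near Efnb1, an ephrin ligand, a region had 73 and 44 tags in controls against 16 and 21 in mutants (chrX:99152775-99153590). In Ephb1, a receptor of such ligands, one had 56 and 52 against 20 and 19. Near Robo3, a receptor that governs midline crossing of commissural axons, the counts were 152 and 140 against 55 and 85. All 3 had controls above mutants. Synaptic genes held 39 of 653 (5.97%), below the share over all shared regions, with 24.5% stronger. Of these 39, Tenm3, a teneurin, held 6, one with 34 and 31 tags against 14 and 15. Tenm3 also had 23 stronger regions. Syt1, the calcium sensor of transmitter release, had a region with 51 and 38 against 18 in each mutant. In the list of other neuronal transcription factors 71 of 667 (10.6%) were weaker, among them a region in Bcl11a, a zinc finger factor, with a gap of 56.6 and 51 and 38 tags against 23 and 24. The housekeeping list had 2 of 36, among them one near Ywhaz with a gap of 13.4.

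Hox genes held 7 of 106 (6.60%), near the share over all shared regions, and the same number were stronger. The list share was from 0.536 to 1.73 times the overall share under 15 other settings, on both sides of 1. Each of 7 genes had 1. At Hoxc13 the counts were 53 and 33 tags in controls against 21 and 18 in mutants (chr15:102920603-102921900). At Hoxc9, a gene of thoracic motor neurons, they were 39 and 29 against 14 and 23. At Hoxb9 they were 66 and 43 against 28 in each mutant. Hoxc9 and Hoxb9 belong to the paralog group of the thoracic level. The region in Hoxc6, a gene of the forelimb motor neurons, had 60 and 42 against 37 and 29. In Hoxa10 it had 75 and 50 against 33 and 37. In Hoxa2, a hindbrain gene, it had 126 and 98 against 79 and 93. Near Hoxc4, which had 12 shared regions, the weaker one had 80 and 59 against 46 and 68, so control 2 was below Hoxa5-deficient 2 in unscaled tags. At the 6 Hox genes other than Hoxc4 the control tags lay above the mutant tags with no overlap, which the choice of regions makes likely.

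The regions of the Hox5 genes were not among the weaker ones. The 2 shared regions of Hoxa5 had gaps of −0.398 and −3.57, that of Hoxb5 −0.151 and that of Hoxc5 −2.76. At the smaller Hoxa5 region, chr6:52202532-52202868, the tags were 120 and 139 in controls against 93 and 152 in mutants, and the groups overlapped. On the depth-scaled scale 45 of the 106 Hox regions (42.5%) were lower in both mutants, against 20.1% of all shared regions. Most of the 45 differed by less than the criterion needs. Hox genes took 0.200% and 0.179% of all depth-scaled tags at shared regions in controls against 0.147% and 0.148% in mutants.

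Genes of the Hox cofactors held 14 of 193 (7.25%), with 21.8% stronger, and the weaker share was from 0.628 to 1.61 times the overall share under other settings. In Pknox2, a Meis-related factor, 3 of 33 were weaker, the largest with 82 and 60 tags in controls against 19 and 21 in mutants (chr9:37114394-37115385). Near Meis3 the gap of 50.1 came with a smaller difference in tags, 80 and 66 against 47 and 57, a ratio of 1.60. Meis2 had 3 of 39, and Meis1 and Pbx3 had 1 each, with 8, 12 and 8 stronger regions in that order. At the weaker regions of these genes the controls were above the mutants, except at Meis1 and at 1 Pknox2 region, where control 2 had 36 and 67 tags and Hoxa5-deficient 2 had 42 and 89.

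Of 133 microRNA hairpins of the RefSeq annotation that lay in shared regions, 4 lay in weaker and 9 in stronger ones. Neighbouring hairpins can share a region: the 133 lay in 120 regions, of which 4 (3.33%) were weaker and 8 (6.67%) stronger, against 7.27% and 14.4% of all shared regions. The weaker ones were Mir326, Mir6403, Mir344i and Mir3067. The mature products of Mir326, at chr7:99552269-99552363 on the plus strand, are shown because it is the best known of the 4, with the seed (bases 2 to 8) in capitals.
miR-326-5p: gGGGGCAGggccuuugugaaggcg
miR-326-3p: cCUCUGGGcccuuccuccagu
The region over Mir326 had 45 tags in each control and 18 and 24 in mutants, with a gap of 25.5. The Mir6403 region had 76 and 58 against 23 and 32, and the Mir3067 region 83 and 84 against 40 and 41. At Mir344i the counts were 27 and 26 against 17 and 16. Control tags were above mutant tags at all 4, and whether the hairpins are transcribed was not measured.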

How the data were processed

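ATAC-seq was measured in 2 control and 2 Hoxa5-deficient libraries of ChAT::GFP-sorted cervical cells at embryonic day 12.5. MACS2 2.2.4, SAMtools 1.9, Bowtie2 2.3.4.3 and FastQC 0.11.9 were used with build mm10, per the submitters' processing notes. Their settings, and any shift of reads for Tn5, are not stated. The authors deposited 1 headerless peak list per library, with a score capped at 1000 (used only in checks), a fold enrichment ratio at the summit, and p-values and q-values as −log10. These are the authors' values for single peaks and were used to rank peaks within a list.

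Intervals on 21 chromosomes were merged at 1 bp overlap. Percentiles are ranks of the deposited −log10 p among a list's distinct intervals. Read depth is not stated; the whole-number tag count at a summit was recovered from fold and −log10 p (tolerance 0.001) and divided by the library's lowest background. Genes came from a RefSeq table of GRCm38.p6 with 21887 protein-coding genes and no strand, so gene ends replace starts. All 336 listed genes matched. Coordinates are 1-based, and mm10 and GRCm38.p6 share them.

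The members and the gene lists were chosen with earlier results of these data known. Named were the 12 regions with the largest gap, the 8 genes with most members, Hox and cofactor genes, up to 3 regions per list by gap, 6 at gene ends and 3 on each side of the threshold; others were picked after their values were seen. No test was run, because 2 libraries a group chose the regions. Alternatives covered ranking, gap, merging, the q threshold, left-out libraries and the replicate block; a rule on tags was added after seeing the data. The counting was checked on simulated lists. Sequences of regions away from promoters are not analysed here. Some genes of the lists are counted in them but not reported here by name. Python 3.11.15, pandas 2.3.3, numpy 2.4.6, scipy 1.17.1 and matplotlib 3.10.9 were used.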

Additional observations from a re-analysis of the deposited data

How the results depend on the processing

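The number of weaker regions, 4786, moved with the ranking and the threshold. It was 8239 when libraries were ranked among shared regions, 7751 at a gap of 5, 1923 at a gap of 20 and 2687 with −log10 q of 5 or more, and 7300 to 9949 with 1 library left out, which asks for separation of fewer libraries. Those lower in both mutants on the depth-scaled scale numbered 8019, 7610, 1920 and 2663 in the same 4 settings and 7256 to 9887 without 1 library. The share within 1 kb of a gene end was 6.44%, 5.93%, 4.16% and 6.25% in those settings, 6.20% with equal numbers of intervals, 6.002% by the added rule on tags, 5.14% to 5.94% without 1 library, 3.20% within 0.5 kb and 8.36% within 2 kb. The other counts, 3900 to 7156, stayed within 1.5 times. From 9 to 13 of 15 lists lay above the overall share. The progenitor list was 1.91 to 3.48, the interneuron list 1.75 to 3.04 and the glial list 1.74 to 2.62 times the overall share in every setting run; the vascular and housekeeping lists, like the Hox lists, lay on both sides of 1. All 106 gaps of the 12 top regions computed in 10 settings were from 44.2 to 81.1. Leaving out a library or using the replicate block can, by its form, only keep or raise the gap of an unchanged region. Settings in which a region was no longer shared gave no value. Because gaps chose these regions, nothing is read from this range.

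Replicate numbers were not shown to pair libraries: the correlation of control 1 minus 2 with Hoxa5-deficient 1 minus 2 was −0.00563 over 65789 shared regions, which are not independent. With the replicate block, each control against the mutant of the same number, 6046 regions passed. Depth limits the weak end: the weakest mutant peaks named, at 11 tags, lie close to the threshold of the lists, and embryos per library are not stated.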

Other observations

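Some genes that stood in none of the descriptions above held several weaker regions and no stronger one; they were picked after their values were seen. Arl4c, a small GTPase of the ARF family, had 6 weaker regions among 15 shared regions, with ratios of control to mutant depth-scaled tags from 1.80 to 3.99. Zfhx4, a zinc finger homeobox factor of the neuronal transcription factor list, had 4 of 19 with ratios from 2.13 to 3.13. Tcf12, an E protein that pairs with proneural factors, had 4 of 20 with ratios from 2.06 to 3.36. In the interneuron list Lhx5, a LIM homeodomain factor of inhibitory interneurons, had 3 of 13, with ratios from 2.42 to 2.68. In the guidance list Ephb2, an ephrin receptor, had 3 of 25, and Ntn1, the midline attractant netrin, 2 of 10.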
